A study of Homo sapiens with 8 samples.

Results

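The 42 genes of mitosis and the spindle checkpoint described here were taken from a list of G2/M symbols, and all 42 were found among the 18133 rows of the table and among the 13885 that were tested because their mean was 10 normalized counts or more. They were followed in DND41, an established line from a human T-cell leukemia (T-ALL) with activated NOTCH1, after 72 h of doxycycline. Doxycycline switched on an shRNA against SIRT1, a nuclear NAD-dependent deacetylase, or a control shRNA, and the labels do not say which sequences the SIRT1 constructs target. The SIRT1 arm had the constructs sh1 and sh3 with 3 libraries each, lettered A, B and C. Of the control shRNA the libraries A and C were used, which makes 2, and a control B was not analysed here. All 8 libraries received doxycycline, all were DND41 in RPMI with serum, and the labels name no separate clones or infections. The p-values rest on differences between cultures that may be technical. The library sh3 C is named a SIRT1 library by its title and genotype and a control by its description. The library was analysed with sh3, and the number of members called without it is given below.

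Mitosis starts when the complex of cyclin B and the kinase CDK1 is activated. The transcription factor FOXM1 together with the MuvB complex drives the genes needed for mitosis in G2. Chromosomes condense, kinetochores built on the centromere bind spindle microtubules, and the spindle checkpoint holds the anaphase-promoting complex (APC/C) until every kinetochore is attached. CDC20 then activates the APC/C, securin and cyclin B are destroyed, separase splits sister chromatids, and the central spindle and contractile ring divide the cell. Because these transcripts peak together in dividing cells, they are widely read as a measure of proliferation in leukemia lines. The members were grouped by role into entry factors (5), kinases (7), kinetochore and centromere genes (8), kinesins (5), other spindle genes (5), anaphase genes (4), chromosome structure genes (5) and cytokinesis genes (3).

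Promoters of such genes typically carry CCAAT boxes, bound by NF-Y, and the cell cycle genes homology region TTTGAA, bound by MuvB-containing complexes. RefSeq (GRCh38.p14) gave 45 promoters for 36 of the 42 members. AURKA, TTK, BIRC5, TPX2, UBE2C and FOXM1 had none in that table. The 250 bases before each start were searched for CCAAT, which reads ATTGG when it lies on the opposite strand. They were also searched for TTTGAA, whose opposite strand reads TTCAAA, and overlapping matches were kept. CCAAT was found in 31 of 45 member promoters (68.9%), beside 32.0% of all 35116 promoters of the same length. TTTGAA was found in 24 (53.3%), beside 13.3% of all promoters. Both stood together in 19 of 45 (42.2%), beside 4.7% of all promoters and 3.5% of the promoters of tested genes. The median match lay 87 bases before the start for CCAAT and 41 bases before it for TTTGAA. Of members with a promoter in the table, 7 of the 14 that rose with the SIRT1 hairpins and 11 of the 22 that were not called had both motifs in a single promoter.

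The 5 stretches of 150 bases that follow are from members with different readouts, and they were chosen after the values were seen. All show both motifs except that of CENPF, which shows CCAAT alone. Capitals mark CCAAT or ATTGG and TTTGAA or TTCAAA, and each runs 5′ to 3′ on the strand of its gene up to the RefSeq start, except KIF4A, where the 14 bases next to the start lie within the annotated gene and were left out. MKI67 and KIF11 rose with the hairpins, ESPL1 differed between them, and KIF4A and CENPF were not called in any comparison. MKI67 is at chr10:128126424-128126573 (minus strand), KIF11 at chr10:92592980-92593129, ESPL1 at chr12:53268149-53268298, KIF4A at chrX:70289940-70290089 and CENPF at chr1:214603045-214603194 (plus strand).
MKI67: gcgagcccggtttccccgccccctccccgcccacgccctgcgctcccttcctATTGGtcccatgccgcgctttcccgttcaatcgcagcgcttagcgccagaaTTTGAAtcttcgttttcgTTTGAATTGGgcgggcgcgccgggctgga
KIF11: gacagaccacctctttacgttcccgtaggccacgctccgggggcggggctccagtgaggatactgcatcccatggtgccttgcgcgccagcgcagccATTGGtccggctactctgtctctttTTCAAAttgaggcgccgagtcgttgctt
ESPL1: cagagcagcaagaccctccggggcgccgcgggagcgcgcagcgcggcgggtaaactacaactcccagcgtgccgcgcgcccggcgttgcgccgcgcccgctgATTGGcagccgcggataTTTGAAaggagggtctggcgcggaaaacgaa
KIF4A: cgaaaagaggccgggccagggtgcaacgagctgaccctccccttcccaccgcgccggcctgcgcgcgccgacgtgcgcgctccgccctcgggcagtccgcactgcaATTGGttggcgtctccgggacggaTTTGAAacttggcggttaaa
CENPF: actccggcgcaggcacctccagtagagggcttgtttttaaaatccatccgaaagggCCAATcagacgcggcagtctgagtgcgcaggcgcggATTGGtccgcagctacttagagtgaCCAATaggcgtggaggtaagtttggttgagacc
Positions are those of the first letter of a match. In KIF11, ESPL1 and KIF4A a CCAAT box lay 53, 48 and 58 bases before the start and TTTGAA followed at 28, 31 and 34 bases. In MKI67 the box at 24 bases shares a letter with the TTTGAA at 29 bases, and another CCAAT lay at 98 and another TTTGAA at 47. CENPF held 3 CCAAT matches, at 94, 58 and 33 bases, and no TTTGAA in this window.

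SIRT1 itself stood at 1745 and 1919.5 normalized counts in controls A and C, at 1259, 1312 and 1328 with sh1 and at 1099, 1217 and 1179 with sh3, so that all 6 hairpin libraries lay below both controls. Its change was -0.57 ± 0.063 (SE; adjusted p = 0.00030) on the log2 scale for the mean of the constructs. The change was -0.49 with sh1 and -0.65 with sh3 (adjusted p = 0.0029 and 0.00014). Every sh1 library was above every sh3 library, and sh1 minus sh3 was 0.16 ± 0.063 (SE, adjusted p = 0.14, unadjusted p = 0.028). The sum of all values lay between 33087819.7 and 34072666 normalized counts in each library. Of 12 T-lineage markers 10 were in the table, and all 10 were detected in every library, with summed levels of 89868 to 93344 in the controls, 78582 to 80178 with sh1 and 72736 to 73746 with sh3. Of these 10, 8 were called lower for the mean of the hairpins and 1 higher, with 7 lower and 0 higher for sh1 alone (no rise had an unadjusted p under 0.05) and 9 lower and 1 higher for sh3 alone. Of all tested genes 6.19% were called lower and 6.55% higher for the mean. The shares were 3.43% and 2.88% for sh1 alone and 9.19% and 9.36% for sh3 alone. CD7 changed by -0.37 with sh1 and -0.85 with sh3 (adjusted p = 0.0069 and 9.6e-06), and CD1A by -0.68 and -1.33 (adjusted p = 0.0054 and 2.2e-05). TLX3 changed by 0.080 with sh1 (adjusted p = 0.37) and 0.78 with sh3 (adjusted p = 3.3e-06), and sh1 minus sh3 was -0.70 (adjusted p = 3.3e-06). Of 19 markers of other blood and adherent cells 17 were found, and 5 of these reached a mean of 10, with CD79A, VIM and PECAM1 well above that in every library and PAX5, CD14, HBB and EPCAM under 10 in every library. CD79A and PECAM1 were called lower for the mean of the hairpins (-0.25, adjusted p = 0.0073, and -0.42, adjusted p = 0.023). The summed level of the 17 was 50493 to 52634 in the controls, 42772 to 45879.8 with sh1 and 48657 to 50809 with sh3. The part of these marker shifts in the results below was not tested.

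Mitotic transcripts were slightly more abundant in the cultures with a SIRT1 hairpin. The 42 members took 0.985% and 0.962% of the normalized counts in controls A and C, 1.09%, 1.09% and 1.07% with sh1 and 1.09%, 1.10% and 1.08% with sh3. All 6 hairpin libraries were above both controls in this share. In each hairpin library the median member lay 0.10 to 0.17 above the control mean on the log2(value + 1) scale, and between 31 and 40 of the 42 members were above it. In bulk RNA, more cells in G2 and mitosis and more of these transcripts per such cell cannot be told apart, and values scaled between libraries say nothing of RNA per cell.

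**Figure D1:**
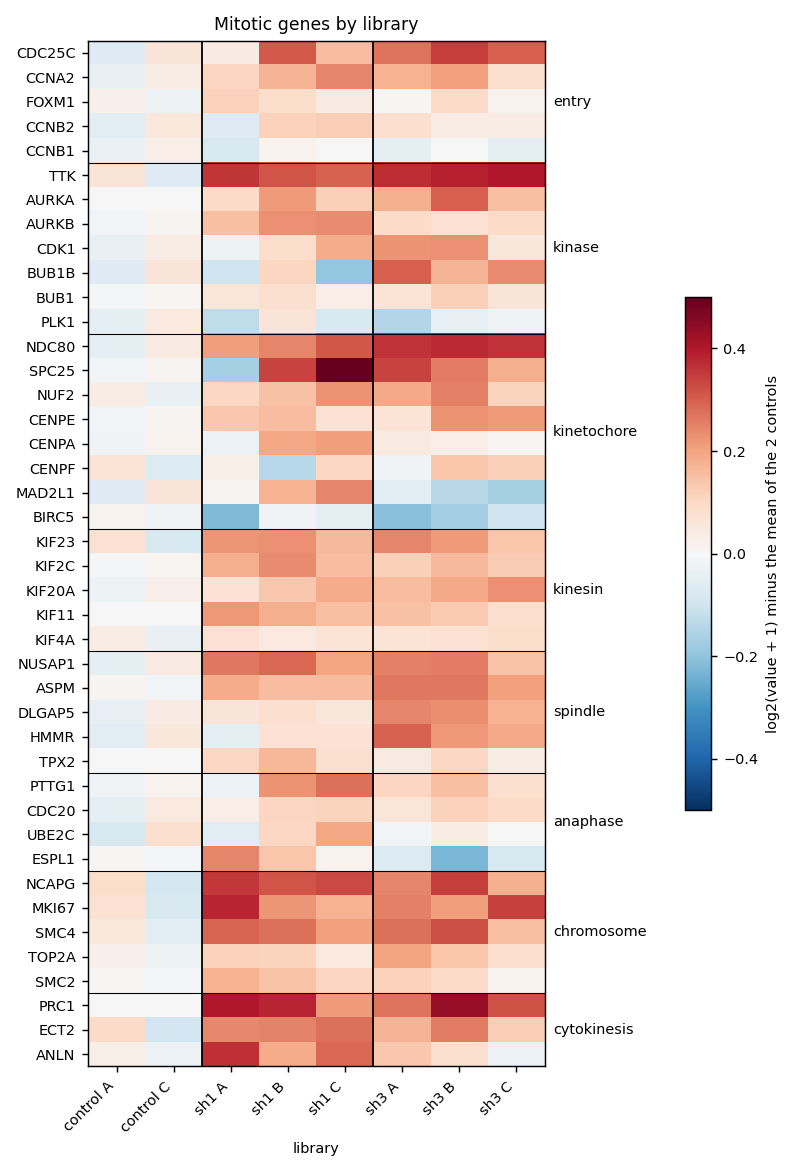
Heat map of the 42 members (rows, by role) in the 8 libraries (columns), as log2(value + 1) minus the mean of the 2 controls, red above and blue below. TTK, NDC80, PRC1, NCAPG and NUSAP1 are red in all 6 hairpin libraries, and BIRC5 is blue in all 6.

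The first comparison asks whether these genes respond to the SIRT1 hairpins, with sh1 and sh3 weighted equally. Of the 42 members 16 rose and 0 fell in limma at an adjusted p under 0.05 (38.1% higher), beside 6.55% of all tested genes called higher and 6.19% called lower. Of the members with a negative change 1 (BIRC5) had an unadjusted p under 0.05. The median change over the 42 was 0.14 on the log2 scale, beside -0.0022 over all tested genes, and 39 of 42 were above 0. The called rises were small, from 1.10-fold for DLGAP5 to 1.28-fold for TTK. All 6 hairpin libraries lay above both controls for 24 members, among them all 16 that were called, beside 11.9% of tested genes. They lay below both controls for 1 member, BIRC5, beside 11.4% of tested genes. The number of rises was 3 without control C, 9 without control A, sh1 B or sh3 A, and 8 without sh3 B, while 21 rose without sh1 A and 16 without sh3 C, whose labels conflict. In the fit without control C 1.04% of all tested genes were called higher. TTK and NDC80 were called in each of the 8 fits that leave out a library. With a variance prior that did not follow the mean 4 rose (TTK, NDC80, ASPM and PRC1), beside 2.43% of all tested genes called higher. With the 6 hairpin libraries as one group against the controls 7 rose (these 4, NUSAP1, NCAPG and SMC4), beside 1.38%. With the library letter as a replicate block 9 rose, all of them among the 16, beside 4.49% of tested genes called higher. That share was 4.77% without sh1 B, 4.27% without sh3 A and 4.42% without sh3 B. It was 6.82% without sh1 A and 6.37% without sh3 C.

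**Figure D2:**
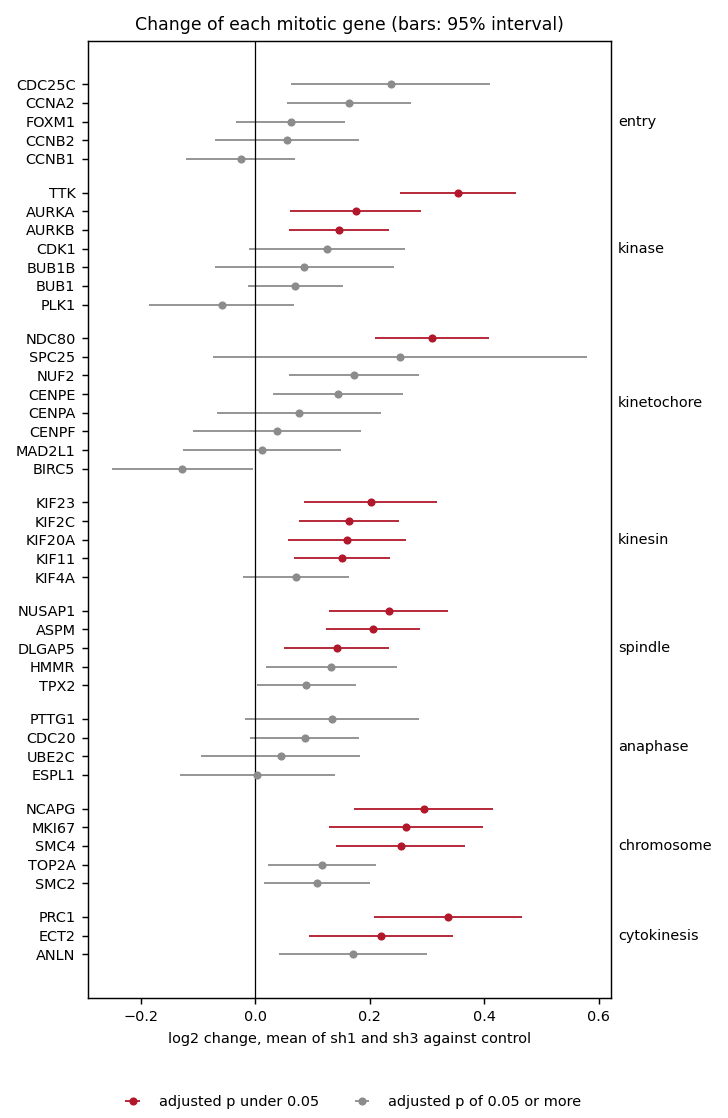
Log2 change of each member (points) for the mean of sh1 and sh3 against control, with its 95% interval (bars), grouped by role; red points have an adjusted p under 0.05. The 16 red points lie between 0.14 and 0.35, and no anaphase or entry gene is red.

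Kinases held 3 rises among 7 members, with a median change of 0.13. TTK (MPS1; chromosome 6, 80003887 to 80042527, GRCh38), the kinase that starts spindle checkpoint signalling at unattached kinetochores, stood at 4165 and 3801 normalized counts in controls A and C, at 5102, 4954 and 4875 with sh1 and at 5141, 5215 and 5245 with sh3. Every hairpin library exceeded both controls, and the change was 0.35 ± 0.046 (SE; 1.28-fold; adjusted p = 0.00092). AURKB, the catalytic subunit of the chromosomal passenger complex, stood at 7731 and 7875 normalized counts in controls A and C, at 8657, 9136 and 9184 with sh1 and at 8335, 8236 and 8336 with sh3. Its groups did not overlap, with a change of 0.15 ± 0.040 (SE; 1.11-fold; adjusted p = 0.033). AURKA, which matures centrosomes and the spindle poles, stood at 4069 and 4063 normalized counts in controls A and C, at 4345, 4710.5 and 4411 with sh1 and at 4603, 5003 and 4509 with sh3. Each hairpin library was above both controls, while sh1 and sh3 overlapped, and AURKA changed by 0.18 ± 0.052 (SE, 1.13-fold, adjusted p = 0.048). The call of AURKB ended when either control, sh1 B or any sh3 library was left out, with changes of 0.13 to 0.16 and adjusted p of 0.051 to 0.16. That of AURKA ended without either control, sh1 B, sh1 C, sh3 A or sh3 B, with changes of 0.15 to 0.18 and adjusted p of 0.051 to 0.23. The other kinases were not called. Their changes were 0.13 for CDK1 (adjusted p = 0.21), the engine of mitotic entry, 0.070 for BUB1 (adjusted p = 0.25), the checkpoint kinase that marks the centromere, and -0.059 for PLK1 (adjusted p = 0.56), which acts from entry to cytokinesis.

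Among 8 kinetochore and centromere genes 1 rose, and the median change was 0.11. NDC80 (chromosome 18, 2571511 to 2616635), the microtubule-binding subunit that names its complex, stood at 3829 and 4082 normalized counts in controls A and C, at 4572, 4679 and 4908 with sh1 and at 5076, 5117 and 5075 with sh3. The 6 hairpin libraries were above both controls and changed by 0.31 ± 0.045 (SE; 1.24-fold; adjusted p = 0.0018). The partners of NDC80 in that complex had changes of the same sign that missed the threshold: NUF2 (0.17, adjusted p = 0.051), with every hairpin library above both controls, and SPC25 (0.25, adjusted p = 0.29), which ranged from 383 in sh1 A to 638 in sh1 C. NUF2 was past the threshold without sh1 A or without sh3 C (0.19, adjusted p = 0.035, and 0.19, adjusted p = 0.038), and SPC25 without sh1 A (0.36, adjusted p = 0.027). CENPE, a kinetochore kinesin that carries chromosomes to the spindle equator, changed by 0.14 (adjusted p = 0.090) and CENPF, a large outer kinetochore protein, by 0.038 (adjusted p = 0.76). The centromeric histone gene CENPA changed by 0.076 (adjusted p = 0.49). BIRC5 (survivin), the passenger subunit that also restrains apoptosis, went the other way without being called. It stood at 6909 and 6749.9 normalized counts in controls A and C, at 5863, 6743 and 6618 with sh1 and at 5909.6, 6076 and 6367 with sh3, all 6 below both controls, with a change of -0.13 ± 0.056 (SE; adjusted p = 0.16).

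Kinesins, the motors that slide and cut microtubules, held 4 rises among 5 members, with a median of 0.16. KIF2C (MCAK), which depolymerizes microtubules at faulty attachments, stood at 6723 and 6809 normalized counts in controls A and C, at 7670.5, 7963 and 7537 with sh1 and at 7358, 7573 and 7394 with sh3. Each hairpin library was above both controls, while sh1 and sh3 overlapped, and the change was 0.16 ± 0.040 (SE, 1.12-fold, adjusted p = 0.021). KIF11 (Eg5), which pushes the spindle poles apart, stood at 10239.5 and 10282 normalized counts in controls A and C, at 11938, 11627 and 11386 with sh1 and at 11343, 11225 and 10886 with sh3, with a change of 0.15 ± 0.038 (SE; 1.11-fold; adjusted p = 0.026). KIF23, the motor of the centralspindlin complex, stood at 3114 and 2808 normalized counts in controls A and C, at 3450.4, 3467 and 3311 with sh1 and at 3498, 3430.0 and 3259.7 with sh3, and changed by 0.20 ± 0.053 (SE; 1.15-fold; adjusted p = 0.030). KIF20A, a central spindle motor, rose by 0.16 ± 0.047 (SE; 1.12-fold; adjusted p = 0.046), and KIF4A, a chromosome-bound motor, was not called at 0.071 (adjusted p = 0.30). For all 5 kinesins each hairpin library was above both controls. Leaving out single libraries ended these calls. KIF2C missed the threshold without sh3 B (0.16, adjusted p = 0.052), control A (0.15, adjusted p = 0.12) or control C (0.17, adjusted p = 0.13). KIF11 missed it without either control, sh1 B, sh3 A or sh3 B (a change of 0.15 in each, adjusted p of 0.053 to 0.16). KIF23 missed it without sh1 B, sh3 A, sh3 B or control C (0.13 to 0.20, adjusted p of 0.059 to 0.33), and KIF20A was called in 1 of the 8 fits that leave out a library, the one without sh1 A (0.17, adjusted p = 0.027; 0.14 to 0.18 and adjusted p of 0.063 to 0.22 in the others).

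Of 5 other spindle genes 3 rose (median 0.14). ASPM, which holds spindle poles together and is known from primary microcephaly, stood at 11293 and 11084 normalized counts in controls A and C, at 12733, 12446 and 12494 with sh1 and at 13448, 13436 and 12881 with sh3. No hairpin library reached down to a control, and the change was 0.21 ± 0.038 (SE; 1.15-fold; adjusted p = 0.0058). NUSAP1, a microtubule bundler at chromosomes, stood at 7176 and 7635 normalized counts in controls A and C, at 8889, 9023 and 8495 with sh1 and at 8808, 8839.6 and 8169 with sh3, with a change of 0.23 ± 0.047 (SE; 1.18-fold; adjusted p = 0.0096). DLGAP5 (HURP), which stabilizes kinetochore fibres, stood at 5487 and 5798 normalized counts in controls A and C, at 5894, 5984 and 5863 with sh1 and at 6682, 6622 and 6361 with sh3. Its change was 0.14 ± 0.042 (SE; 1.10-fold; adjusted p = 0.047), and it was larger with sh3 than with sh1, as given below. TPX2, which activates AURKA on the spindle, changed by 0.089 (adjusted p = 0.16) with all 6 hairpin libraries above both controls, and HMMR, a spindle pole protein, by 0.13 (adjusted p = 0.12). The call of ASPM ended without control C (0.19, adjusted p = 0.083) and NUSAP1 without control A (0.19, adjusted p = 0.097). DLGAP5 missed it without either control, sh1 B, sh1 C, sh3 A or sh3 B (0.10 to 0.18, adjusted p of 0.052 to 0.28).

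The highest medians were in the groups of chromosome structure (0.25, 3 rises of 5) and cytokinesis (0.22, 2 rises of 3). NCAPG, a subunit of condensin I, stood at 7474 and 6624 normalized counts in controls A and C, at 8984, 8749 and 8835 with sh1 and at 8337, 8951 and 7958 with sh3, and changed by 0.29 ± 0.056 (SE; 1.23-fold; adjusted p = 0.0068). SMC4, the ATPase core of both condensins, stood at 21836 and 20325 normalized counts in controls A and C, at 25781, 25507 and 24262 with sh1 and at 25526, 26362 and 23404 with sh3, and changed by 0.25 ± 0.051 (SE; 1.19-fold; adjusted p = 0.0095). MKI67 (Ki-67), the coat of mitotic chromosomes and the standard proliferation marker, stood at 22931 and 20637 normalized counts in controls A and C, at 28296, 25368 and 24507 with sh1 and at 25894, 25169 and 27604 with sh3, and changed by 0.26 ± 0.061 (SE; 1.20-fold; adjusted p = 0.018). In these 3 genes the controls were apart too, control A being the higher, and no hairpin library overlapped them. SMC2, the ATPase partner of SMC4, changed by 0.11 (adjusted p = 0.11), and TOP2A, the topoisomerase that untangles sister chromatids, by 0.12 (adjusted p = 0.095), also without overlap. Without control C, NCAPG (0.21, adjusted p = 0.13), SMC4 (0.20, adjusted p = 0.15) and MKI67 (0.19, adjusted p = 0.23) were not called.

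PRC1 (chromosome 15, 90966038 to 90995629), which bundles the central spindle, stood at 5331 and 5345 normalized counts in controls A and C, at 7048, 6958 and 6187 with sh1 and at 6447, 7228 and 6659 with sh3. The controls lay close together and below every hairpin library, and the change was 0.34 ± 0.059 (SE; 1.26-fold; adjusted p = 0.0045). ECT2, the exchange factor that switches on RhoA at the cleavage furrow, stood at 3367 and 2947 normalized counts in controls A and C, at 3723, 3743 and 3817 with sh1 and at 3546, 3765 and 3431 with sh3, with a change of 0.22 ± 0.057 (SE; 1.16-fold; adjusted p = 0.029). ANLN, the anillin scaffold of the contractile ring, changed by 0.17 ± 0.059 (SE; 1.13-fold; adjusted p = 0.080) and is taken up with the difference between the hairpins. PRC1 was not called without control C (0.34, adjusted p = 0.063), and ECT2 not without sh1 B, sh3 A, sh3 B or control C (0.12 to 0.22, adjusted p of 0.052 to 0.35).

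Entry factors and anaphase genes held no call, with medians of 0.062 and 0.065; 2 of 5 entry factors and 0 of 4 anaphase genes had an unadjusted p under 0.05. CCNA2 (cyclin A2), which acts with CDK1 and CDK2 in S and G2 phase, had the smallest p among the entry factors and stood at 9142 and 9635 normalized counts in controls A and C, at 10108, 10561 and 11106 with sh1 and at 10593, 10807 and 9931 with sh3. The 6 hairpin libraries were above both controls, with a change of 0.16 ± 0.049 (SE; 1.12-fold; adjusted p = 0.051). CCNA2 was called without sh1 A or without sh3 C (0.18, adjusted p = 0.027, and 0.18, adjusted p = 0.036). The cyclin B genes overlapped the controls, CCNB1 with a change of -0.025 (95% interval -0.12 to 0.07) and CCNB2 with 0.055 (-0.07 to 0.18). FOXM1 changed by 0.062 (-0.033 to 0.16), and CDC25C, the phosphatase that activates CDK1, by 0.24 (0.062 to 0.41; adjusted p = 0.073). CDC25C was called without sh1 A (0.27, adjusted p = 0.036).

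Among the anaphase genes CDC20, the APC/C activator and target of the checkpoint, had the smallest p and stood at 7538 and 8048 normalized counts in controls A and C, at 7963, 8385 and 8405 with sh1 and at 8114, 8435 and 8319 with sh3. Its change was 0.086 ± 0.043 (SE; 1.06-fold; adjusted p = 0.22), and sh1 A lay between the controls. The intervals of the others were -0.017 to 0.29 for PTTG1 (securin, which has near-identical copies that can share its reads), -0.094 to 0.18 for UBE2C, the ubiquitin-conjugating enzyme of the APC/C, and -0.13 to 0.14 for ESPL1 (separase). Those of PTTG1 and UBE2C include 0 and also changes as large as some that were called elsewhere in the list. PTTG1 was called without sh1 A (0.18, adjusted p = 0.019) and after removal of a length trend described below (0.19, adjusted p = 0.030). Differences between the role groups were not tested, nor was the part of transcript length in them. Of the 42 members 26 overlap another annotated gene, 11 of them among the 16 that rose, and 9 have a pseudogene named after them; the libraries are strand-specific, but strand use in counting is not given in sources used here.

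With sh1 alone 13 members rose and 0 fell against the controls (31.0%), beside 2.88% of tested genes higher and 3.43% lower, and no member with a negative change had an unadjusted p under 0.05. With sh3 alone 15 rose and 0 fell (35.7%), beside 9.36% higher and 9.19% lower, and 1 fall (BIRC5, -0.16, adjusted p = 0.10) had an unadjusted p under 0.05. BIRC5 was called lower with sh3 when sh1 A was left out (adjusted p = 0.031) and when the fit held sh3 and the controls alone (adjusted p = 0.043). The arms share both controls, so that these counts are not independent of each other. The median change was 0.14 with sh1 and 0.15 with sh3. TTK, NDC80, NUSAP1, ASPM, PRC1, NCAPG, SMC4 and MKI67 were called with both. AURKB, KIF2C, KIF11, ECT2 and ANLN were called with sh1, and AURKA, KIF20A, KIF23, DLGAP5, HMMR, NUF2 and CDC25C with sh3. Without control C no member was called with sh1 in limma (16 had an unadjusted p under 0.05) and 7 with sh3; without control A the counts were 3 and 9. Without sh1 B, 4 were called with sh1, beside 1.03% of tested genes called higher. Without sh3 A the count for sh1 was 8, beside 1.97%. For sh3 it was 8 without sh3 A and 7 without sh3 B, beside 5.44% and 5.49%.

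The hairpins were then compared with each other, which tests whether their effects differ and needs no control. The part of unequal SIRT1 levels in such differences was not tested. Of the 42 members 6 differed, 3 higher with sh1 and 3 higher with sh3, beside 11.4% of tested genes that differed in either direction. Of the 12 members called with a single hairpin, 3 differed between the hairpins (DLGAP5, HMMR and ANLN), and for the other 9 a difference was not established. BUB1B (BUBR1), the checkpoint protein that inhibits CDC20, stood at 7326 and 8028 normalized counts in controls A and C, at 7148, 8258 and 6699 with sh1 and at 9437, 8626 and 9042 with sh3. Each sh3 library was above each sh1 library, with a difference of -0.30 ± 0.071 (SE; adjusted p = 0.020), written as sh1 minus sh3. MAD2L1 (MAD2), which captures CDC20 in the checkpoint complex, differed in the opposite direction. It stood at 5919.6 and 6478 normalized counts in controls A and C, at 6249.9, 6983 and 7343 with sh1 and at 5975, 5620.3 and 5523 with sh3, with every sh1 library above every sh3 library and a difference of 0.26 ± 0.063 (SE; adjusted p = 0.020). BUB1B and MAD2L1 were not called against control with either hairpin (adjusted p = 0.69 and 0.25 with sh1, 0.062 and 0.27 with sh3). The gene of BUB1B overlaps the annotated read-through gene BUB1B-PAK6, whose reads cannot be told apart from its own here.

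ESPL1, the protease separase, stood at 5151 and 5101 normalized counts in controls A and C, at 6073, 5649 and 5195 with sh1 and at 4885, 4377 and 4844 with sh3. The controls lay between the arms, and the difference was 0.26 ± 0.062 (SE; adjusted p = 0.019). ANLN stood at 3555 and 3409 normalized counts in controls A and C, at 4488, 3961 and 4245 with sh1 and at 3824, 3679.9 and 3411 with sh3. It was higher in each sh1 library than in any sh3 library by 0.22 ± 0.059 (SE; adjusted p = 0.034), and sh3 C lay between the controls. HMMR stood at 4541 and 4908 normalized counts in controls A and C, at 4575, 4961 and 4967 with sh1 and at 5793, 5485 and 5382 with sh3. Here the sh1 libraries overlapped the controls and the sh3 libraries were above all others, with a difference of -0.20 ± 0.052 (SE; adjusted p = 0.029). For DLGAP5 the sh1 libraries lay just above the controls and the sh3 libraries above sh1, with a difference of -0.15 ± 0.042 (SE; adjusted p = 0.042). These 6 calls were close to the threshold. ESPL1 missed it without sh1 B or sh3 B (0.21 to 0.26, adjusted p of 0.062 to 0.086) and ANLN without sh1 A, sh1 C, sh3 B or sh3 C (0.17 to 0.23, adjusted p of 0.083 to 0.12). HMMR missed it without sh1 A, sh1 B, sh3 A or sh3 B (-0.22 to -0.16, adjusted p of 0.056 to 0.12), and DLGAP5 without sh1 A, sh1 B, sh1 C, sh3 A or sh3 B (-0.16 to -0.13, adjusted p of 0.062 to 0.15). BUB1B missed it without sh1 C, sh3 A or sh3 C (-0.30 to -0.23, adjusted p of 0.058 to 0.082), and MAD2L1 without sh1 B, sh1 C, sh3 B or sh3 C (0.21 to 0.25, adjusted p of 0.068 to 0.073). The 4 kinesins and 3 chromosome genes that rose had differences between the hairpins of -0.06 to 0.075, none of them called. With a variance prior that did not follow the mean none of the 6 was called in limma (adjusted p of 0.091 to 0.11), and 7 members had an unadjusted p under 0.05. The number of differences called was 2 without sh1 B, 2 without sh1 C, 3 without sh3 A, 1 without sh3 B and 3 without sh3 C. In the same order, the numbers over all tested genes were 1017, 1099, 967, 926 and 1237, beside 1589 with all libraries. With the variance prior that did not follow the mean it was 968.

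**Figure D3:**
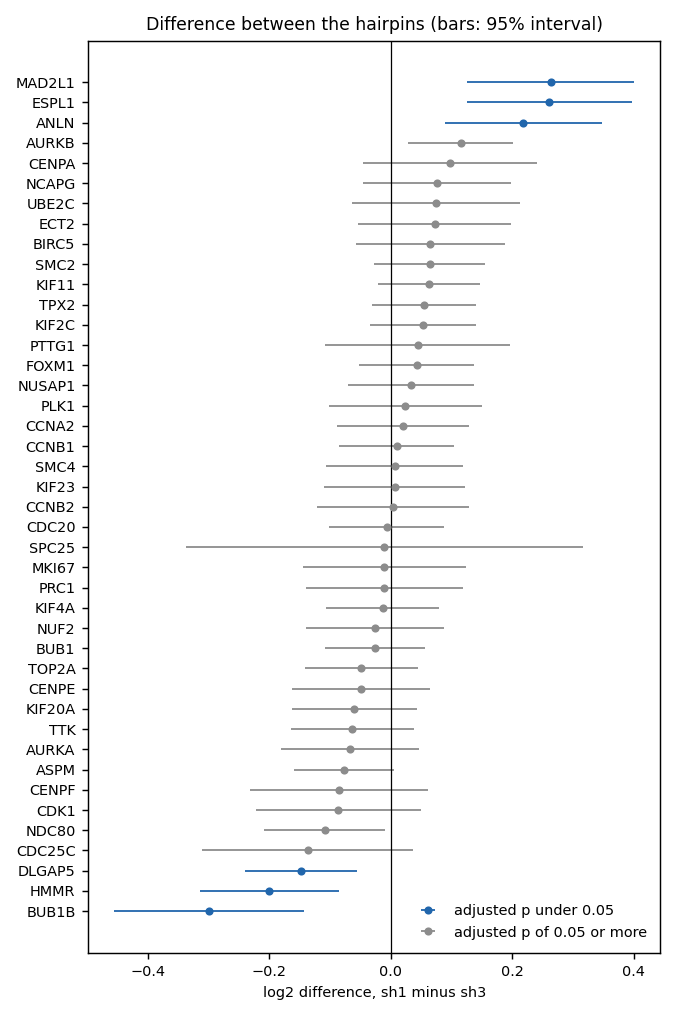
Log2 difference between sh1 and sh3 for each member (points), with its 95% interval (bars); positive values are higher with sh1 and blue points have an adjusted p under 0.05. MAD2L1, ESPL1 and ANLN stand at the top (0.26, 0.26 and 0.22) and BUB1B, HMMR and DLGAP5 at the bottom (-0.30, -0.20 and -0.15).

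The members differ widely in transcript length, from 914 bases for UBE2C to 12678 for MKI67 (longest coding transcript in GENCODE 29), and length moved with some of these values. Within the sh1 arm, the deviation of sh1 A from the arm's mean followed length over the 42 members (Spearman's rho = 0.774, n = 42 genes of 1 library) and over 13800 tested genes (rho = 0.274). The matching values were -0.483 and -0.546 for the members in sh1 B and sh1 C and between -0.0641 and 0.0859 in the sh3 libraries. In the controls they were 0.55 for A and -0.55 for C, which mirror each other because there are 2. The short members SPC25, PTTG1, CENPA and UBE2C were lowest in sh1 A within their arm, and MKI67 was highest there. These correlations share the libraries and are given as a description.

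**Figure D4:**
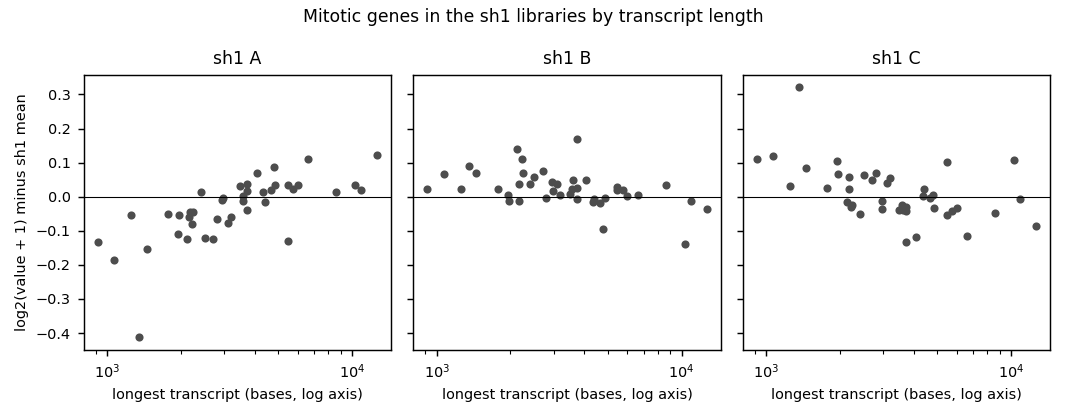
Each panel is 1 sh1 library and each point 1 of the 42 members, with the length of its longest transcript in bases on a log axis and log2(value + 1) minus the mean of the 3 sh1 libraries. In sh1 A the short members lie below 0 and most long ones above it (rho = 0.774), and sh1 B and sh1 C slope the other way (-0.483 and -0.546).

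Against control, the change for the mean of the hairpins was weakly related to length, with rho of 0.0959 over the members and 0.137 over all genes with a length. Among all tested genes the median change went from -0.046 in the shortest of 4 length classes to 0.04 in the longest, and the share called higher from 2.61% to 10.4%. In the same classes, from short to long, the members had medians of 0.13 (8 members, 1 rise), 0.16 (13, 6 rises), 0.16 (12, 6 rises) and 0.12 (9, 3 rises). With the trend against length removed from each library, an alternative chosen after seeing the data, 20 members rose, among them all 16, and 0 fell in limma. The counts were 12 with sh1, 21 with sh3 and 6 between the hairpins. Of all tested genes 7.09% were then called higher for the mean, 3.5% with sh1 and 9.43% with sh3. Between the hairpins 1842 of 13800 differed.

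Other genes of the same machinery, from textbook lists, gave the following counts for the mean of the hairpins. Over all tested genes 6.55% were called higher and 6.19% lower. Of 37 other kinetochore, centromere and checkpoint genes 9 rose and 0 fell (median 0.12), among them KNL1 (0.37 ± 0.050, adjusted p = 0.0011), the scaffold that TTK phosphorylates, SPAG5 (0.24 ± 0.041, adjusted p = 0.0042) and CENPC (0.36 ± 0.070, adjusted p = 0.0080), the centromere anchor. Of 25 other mitotic kinesins and spindle genes 13 rose and 0 fell (median 0.18), among them CKAP2 (0.28 ± 0.041, adjusted p = 0.0020), KIF18A (0.41 ± 0.068, adjusted p = 0.0038), a motor that dampens chromosome movement, and RACGAP1 (0.32 ± 0.050, adjusted p = 0.0026), the partner of KIF23 in centralspindlin. Of 16 other condensin and cohesin genes 8 rose and 0 fell (median 0.16), including the cohesin genes SMC3 (0.24 ± 0.044, adjusted p = 0.0051), STAG2 (0.23 ± 0.046, adjusted p = 0.0082) and NIPBL (0.26 ± 0.053, adjusted p = 0.011), which are expressed through the whole cycle. Of 15 other kinases, phosphatases and regulators 5 rose and 0 fell (median 0.059), led by the MuvB subunit gene LIN52 (0.43 ± 0.073, adjusted p = 0.0042), MASTL (0.25 ± 0.056, adjusted p = 0.017) and CDC25A (0.25 ± 0.060, adjusted p = 0.023). MASTL and CDC25A were called with sh3 (adjusted p = 0.013 and 0.0059) and not with sh1 (adjusted p = 0.060 and 0.21). For both a difference between the hairpins was not established (adjusted p = 0.68 and 0.070). With sh3 alone 1 of the 15 fell, WEE1 (-0.25, adjusted p = 0.039), named after its value was seen, beside 9.19% of all tested genes called lower. The counts of 0 falls are for the mean of the hairpins at an adjusted p under 0.05 in limma. In that comparison 1 gene of these lists with a negative change (CCNF, named after its value was seen) had an unadjusted p under 0.05.

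The APC/C and its regulators had a median near 0 (-0.0023), with 2 rises and 1 fall among 17 genes. That is 11.8% higher, beside 6.55% of all tested genes called higher and 6.19% called lower. FBXO5 (EMI1), its inhibitor, changed by 0.24 ± 0.052, adjusted p = 0.014, the core subunit gene CDC16 by 0.17 ± 0.050, adjusted p = 0.042 and ANAPC15 by -0.27 ± 0.080, adjusted p = 0.049. Of 39 DNA replication and G1/S genes 9 rose and 0 fell (median 0.10), among them E2F8 (0.48 ± 0.060, adjusted p = 0.00071), RRM2 (0.25 ± 0.040, adjusted p = 0.0032) and ORC1 (0.29 ± 0.053, adjusted p = 0.0056). Of those with a negative change 1 (GINS3, -0.14, named after its value was seen) had an unadjusted p under 0.05 in limma. With sh3 alone 12 of the 39 rose and 2 fell. With sh1 alone 6 rose and 0 fell (none with a negative change had an unadjusted p under 0.05). Between the hairpins 3 were higher with sh1 and 5 higher with sh3, beside 11.4% of all tested genes that differed in either direction. Among 12 tested brakes of the cycle 3 rose and 0 fell in limma (median 0.057). Those that rose were CDKN1B (0.35 ± 0.046, adjusted p = 0.00099), the gene of the CDK inhibitor p27, CDKN2D (0.56 ± 0.092, adjusted p = 0.0035), the gene of p19-INK4d, and BTG1 (0.36 ± 0.091, adjusted p = 0.025), an antiproliferative gene. Of the other brakes 2 (CDKN1A and GADD45G) had a negative change with an unadjusted p under 0.05. With sh3 alone 5 of the 12 brakes rose and 2 fell, and with sh1 alone 1 rose and 0 fell (none with a negative change had an unadjusted p under 0.05). Of all tested genes 9.36% were called higher and 9.19% lower with sh3, and 2.88% higher and 3.43% lower with sh1. CDKN2D and BTG1 were called with sh3 (adjusted p = 0.00013 and 0.0043) and not with sh1 (adjusted p = 0.43 and 0.34), and sh1 minus sh3 was -0.82 (adjusted p = 0.00020) and -0.37 (adjusted p = 0.023). The falls with sh3 were CDKN1A, the gene of the CDK inhibitor p21, and GADD45G, a stress-induced growth arrest gene, both named after their values were seen. CDKN1A changed by -1.48 ± 0.21 with sh3 (adjusted p = 0.00092) and by 0.35 ± 0.21 with sh1 (adjusted p = 0.37), and sh1 minus sh3 was 1.84 ± 0.19 (adjusted p = 0.00011), the largest difference among the brakes. GADD45G changed by -1.68 ± 0.43 with sh3 (adjusted p = 0.019) and by -0.48 ± 0.43 with sh1 (adjusted p = 0.56), and the difference missed the threshold (1.20 ± 0.38, adjusted p = 0.066).

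**Figure D5:**
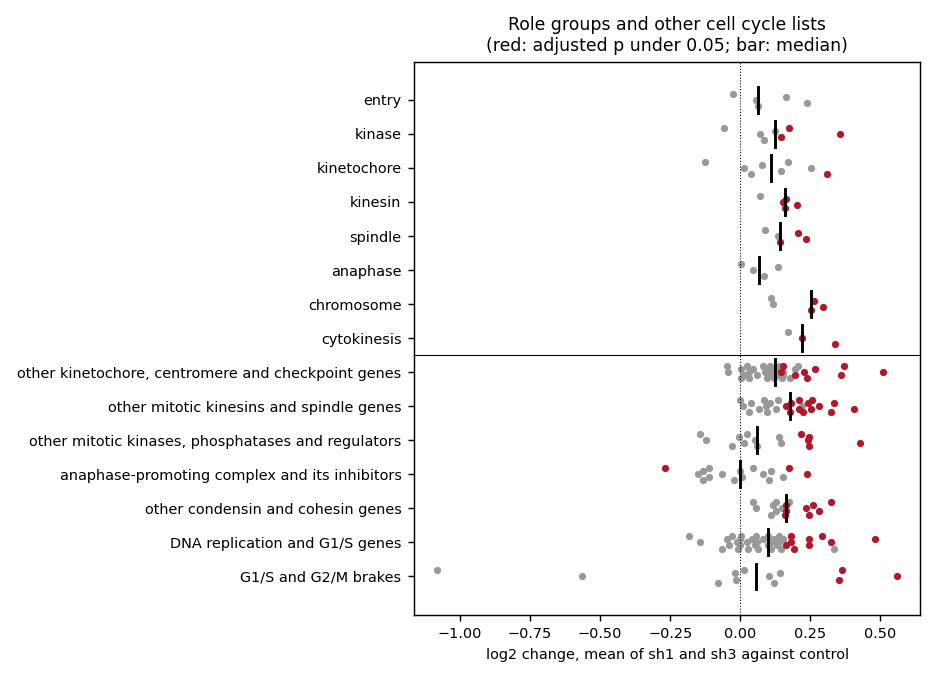
Log2 change for the mean of the hairpins against control of each gene (points; red at an adjusted p under 0.05) and the median (bar) in the 8 role groups of the members, above the line, and in 7 other cell cycle lists below it. The bars of the kinesin, spindle, chromosome and cytokinesis groups lie between 0.14 and 0.25, and that of the anaphase-promoting complex lies at -0.0023.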

How the data were processed

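The submitters' processing notes name kallisto 0.44.0 and DESeq, with hg38 as the build, while annotation and filters are not given in sources used here. For each gene symbol the authors deposited normalized counts, a signal scaled between libraries, so that raw depth is unknown. Values were analysed as log2(value + 1) for 13885 genes with a mean of at least 10 (4248 rows removed), which understates changes of low genes. One limma 3.58.1 model (R 4.3.3, variance prior following the mean) held 3 group means, with 5 residual degrees of freedom, and gave 4 two-sided contrasts. Genes were called at a Benjamini-Hochberg adjusted p under 0.05, over all genes tested. Coordinates and transcript lengths are from GENCODE 29 (GRCh38).

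Members and lists were chosen with earlier results of these data known. Per-library values are given for the 3 called members of each role with the smallest p (1 where none was called) and every member that differed between hairpins. Of each other list the 3 called genes with the smallest p are named. The remaining members are given by their change, except that values per library of BIRC5, SPC25 and KIF4A are also given, chosen after they were seen. Alternatives were other pseudocounts, filters, scalings, variance priors, a replicate block, fits of the groups compared alone, leaving out each library, and removal of a length trend.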

Additional observations from a re-analysis of the deposited data

Results flagged for a closer look

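In limma, 6 members had a change that differed between the SIRT1 constructs by the test of the difference itself, given here as sh1 minus sh3 on the log2 scale. A count of 6 among 42 is near the share over all tested genes, of which 11.4% differed. The checkpoint gene BUB1B differed by -0.30 ± 0.071 (SE, adjusted p = 0.020), with changes against control of -0.063 with sh1 and 0.24 with sh3. The checkpoint gene MAD2L1 differed by 0.26 ± 0.063 (SE, adjusted p = 0.020), with 0.14 with sh1 and -0.12 with sh3. Separase (ESPL1) differed by 0.26 ± 0.062 (SE, adjusted p = 0.019), with 0.13 with sh1 and -0.13 with sh3. Anillin (ANLN) differed by 0.22 ± 0.059 (SE, adjusted p = 0.034), with 0.28 with sh1 and 0.062 with sh3. HMMR differed by -0.20 ± 0.052 (SE, adjusted p = 0.029), with 0.033 with sh1 and 0.23 with sh3, and DLGAP5 by -0.15 ± 0.042 (SE, adjusted p = 0.042), with 0.068 with sh1 and 0.22 with sh3. For all 6 each library of one construct lay beyond each library of the other. They were picked by a test on the same values, so this separation adds no support. The share of all tested genes so separated was not counted. No group holds more than 3 libraries, so that no search for single outlying libraries was made.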

How the results depend on the processing

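The number of members called was 16 for the mean of the hairpins, 13 with sh1, 15 with sh3 and 6 between hairpins. Without a trend in the variance prior the counts were 4, 1, 5 and 0 (7 members had an unadjusted p under 0.05 in that comparison in limma). With only the groups compared in the fit they were 7 for the mean, 5 with sh1, 18 with sh3 (17 higher, and BIRC5 lower) and 6 between hairpins. With the letter as a replicate block they were 9 and 6, and 12 with sh3 and 5 between hairpins. Without the trend 2.43%, 0.519% and 5.35% of all tested genes were called higher for the mean, sh1 and sh3. These shares were 1.38%, 1.4% and 9.99% with only the groups compared, and 4.49%, 1.63% and 7.3% with the block. Pairing by letter was weak if present. The 7 same-letter pairs had correlations of -0.062 to 0.058, none over 0.1, and 4 of 8 libraries correlated best with their own letter. These were sh1 A with control A (0.0427) and sh1 C with control C (0.058), where the 2 controls mirror each other. The other same-letter pairs lay between -0.062 and -0.0127. Length trends over the members also went alike in sh1 A and control A (rho = 0.774 and 0.55) and in sh1 C and control C (-0.546 and -0.55). A batch shared by letter was not tested. Leaving out a library gave 3 to 21 for the mean, 0 to 12 with sh1, 7 to 19 with sh3 (without sh1 A, 18 higher and BIRC5 lower) and 1 to 6 between hairpins. The counts were within 1.5 times of the first ones under the other pseudocounts, filters and scalings, the robust prior and removal of the length trend. No called change turned in sign in any alternative run. With 2 controls, changes near 0.15 lie at the limit of what was called.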

Other observations

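Spread within an arm differed between members. SPC25 had 383, 543 and 638 normalized counts in the sh1 libraries A, B and C and 543, 513 and 488 in the sh3 libraries. BUB1B had 7148, 8258 and 6699 with sh1. KIF4A, by contrast, had 3834, 3759 and 3806 with sh1 and 3813, 3836 and 3858 with sh3, all above the controls.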
